A study of Mus musculus with 6 samples.

Results

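The nuclear genes whose products carry proteins into mitochondria were described across 6 RNA-seq libraries of cultured mouse neural progenitor cells (NPC). Members were taken by name from the table of counts. They were the genes whose symbol begins with Tomm or Timm and a number, Samm50, and Dnajc19, Dnajc15, Pam16, Grpel1, Pmpca, Pmpcb, Chchd4 and Gfer, with names marked as pseudogenes left out. The rule found 36 of 42365 rows, with 35 symbols, since Timm10b stood on 2 rows. The study set cells labelled knockout against wild-type cells of the same line. The groups, each of 2 libraries, were labelled knockout (KO) clone 2 with genotype KO, KO clone 1 with genotype KO, and parental NPC with genotype WT. The genotype is given as labelled, and no treatment is named. Each KO group is a single clone, so whatever sets 1 clone apart is part of its difference from the parental cells. The titles of the 2 parental libraries call them clone 1 and clone 2, without saying how these clones were derived. Whether the 2 libraries of a KO clone came from separate cultures is not stated. P-values between libraries thus measure a spread that may be technical.

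Nearly all mitochondrial proteins are made in the cytosol and imported as precursors. The TOM complex of the outer membrane is the common entry gate. From there, the TIM23 complex and its motor move proteins with a presequence into the matrix, TIM22 inserts carrier proteins into the inner membrane, small TIM chaperones and the MIA disulfide relay serve the space between the membranes, and the SAM complex builds β-barrel proteins. The matrix processing peptidase then removes the presequence. Import is also how the kinase Pink1 senses mitochondrial damage: it is taken in and degraded in healthy mitochondria and held at TOM in damaged ones.

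Depth was similar in all libraries, at 65345036 and 60924858 counts in KO clone 2, 66955560 and 69530032 in KO clone 1, and 63879208 and 58871554 in parental cells. Levels are given as CPM, the usual depth-normalised count, here over the TMM-scaled library size, and a log2 fold change is followed by ± its standard error. "Called" means an adjusted p under 0.05 in edgeR's quasi-likelihood test with Benjamini-Hochberg adjustment over all genes tested. The KO clone 1 libraries stood apart from each other more than those of the other groups: the chi-square per gene between the 2 libraries was 4.92 in KO clone 2, 22.1 in KO clone 1 and 3.48 in parental cells. The ratio of KO clone 1 library 1 to library 2 followed transcript GC content, with a Spearman rho of -0.45 across 12917 genes, against -0.34 for the same ratio in KO clone 2 and -0.0094 in parental cells. A fit corrected for GC content and length was therefore added after the data were seen. Marker levels also differed between the groups. All 6 listed progenitor markers were counted in the cells, with summed levels of 3063 and 3075 CPM in KO clone 2, 2489 and 2475 CPM in KO clone 1 and 2899 and 2889 CPM in parental cells. These sums, of which Vim was the largest part, hold markers that moved in opposite directions: 2 were called higher and 3 lower in KO clone 2 and 3 higher and 3 lower in KO clone 1. Fabp7 averaged 606 CPM in KO clone 2, 601 CPM in KO clone 1 and 165 CPM in parental cells, and Msi1 averaged 104 CPM in KO clone 2, 106 CPM in KO clone 1 and 262 CPM in parental cells. The 4 proliferation markers summed to 568 and 568 CPM in KO clone 2, 936 and 904 CPM in KO clone 1 and 9.49 and 10.3 CPM in parental cells. The 7 astrocyte markers summed to 2802 and 2767 CPM in KO clone 2, 2313 and 2240 CPM in KO clone 1 and 6553 and 6584 CPM in parental cells. Of these, 2 were called higher and 5 lower in KO clone 2, and 1 higher and 5 lower in KO clone 1. Slc1a2 and Slc1a3 made up most of the KO sums. Slc1a2 averaged 1567 CPM in KO clone 2, 1113 CPM in KO clone 1 and 1054 CPM in parental cells. Gfap averaged 9.70 CPM in KO clone 2, 1.59 CPM in KO clone 1 and 2691 CPM in parental cells. The 6 oligodendrocyte markers summed to 1771 and 1801 CPM in KO clone 2, 1828 and 1745 CPM in KO clone 1 and 483 and 494 CPM in parental cells, most of it Olig2, and 4 of the 6 were called lower in each clone. The 5 neuron markers summed to 1059 and 1034 CPM in KO clone 2, 1495 and 1340 CPM in KO clone 1 and 1054 and 1061 CPM in parental cells. Map2 made up nearly all of the neuron sum, and the other 4, Tubb3, Dcx, Rbfox3 and Snap25, were called lower in each clone; Dcx averaged 8.43 CPM in KO clone 2, 10.4 CPM in KO clone 1 and 66.8 CPM in parental cells. The microglial, mesenchymal and pluripotency lists summed to at most 2.90 CPM in any library. The part of these differences in the results was not tested, and in bulk RNA fewer cells of a type and less RNA per cell cannot be told apart.

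Labelled KO and parental cells were compared first with the clones as replicates, adding the 2 libraries of each clone. Of the 36 members, 33 had enough counts to be tested. Timm17b, a channel subunit of TIM23, was called higher and 0 members were called lower, where 26.7% of 24506 genes were called, 13.0% higher and 13.6% lower. At an unadjusted p under 0.05, 6 of the 33 members were higher and 1 lower, where 9716 of 24506 genes passed in either direction. DESeq2 called 1 member higher and 0 lower, where 11.8% of all genes were higher and 10.9% lower. The median log2 fold change was 0.035 over the 33 members and 0.032 over all genes. This fit rests on 4 columns and 2 residual degrees of freedom. Its spread pools that between the KO clones with that between the 2 parental libraries, and the parental part may be technical. The call of Timm17b was lost without either parental library, where a much smaller share of all genes was called as well. Its log2 fold change was nearly as before, at 0.90 without parental replicate 1 and 0.91 without parental replicate 2. In these fits 1 library is left in the parental group and is assumed to vary like the others.

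The clones were then set against parental cells one at a time, in a fit of single libraries. In KO clone 2, 8 members were called higher and 1 lower, where 53.5% of 23400 genes were called, 26.7% higher and 26.8% lower. In KO clone 1, 8 members were called higher and 14 lower, where 54.5% of genes were called, 27.3% higher and 27.2% lower. The median over the 33 members was 0.12 in KO clone 2, where it was 0.016 over all genes, and -0.15 in KO clone 1, where it was -0.0086. Leaving out 1 library moved these counts, and the share of all genes called moved as well. Such a fit leaves 1 library in a group. The summed level of all 36 members was 968 and 986 CPM in KO clone 2, 862 and 918 CPM in KO clone 1 and 905 and 890 CPM in parental cells. These comparisons share the parental libraries, so their values are given side by side below.

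**Figure D1:**
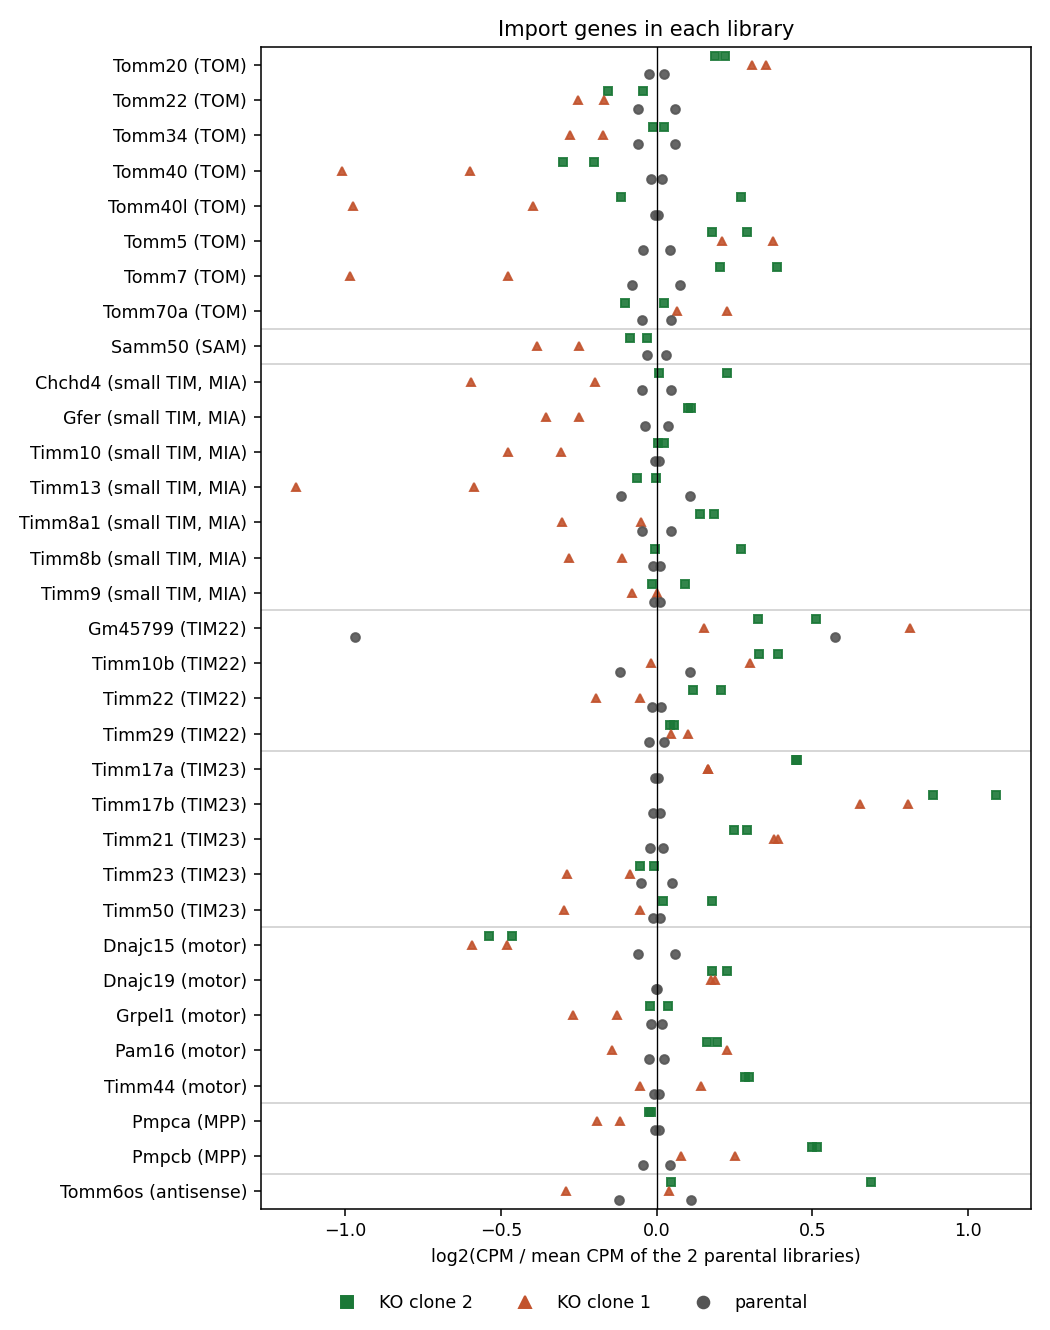
Level of each tested import gene in every library, as log2 of its CPM over the mean CPM of the 2 parental libraries (x axis), with genes grouped by role down the page; squares are KO clone 2, triangles KO clone 1 and circles parental cells. Timm17b stands right of parental and Dnajc15 left of it in all 4 KO libraries, and several genes of the TOM and small TIM groups are low in the KO clone 1 libraries alone.

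All 4 KO libraries lay above both parental libraries for 8 tested members, Timm17b, Timm17a, Timm21, Tomm20, Tomm5, Pmpcb, Dnajc19 and Timm29, where 28.1% of all genes did so. They lay below both for 4 members, Dnajc15, Tomm40, Samm50 and Pmpca, where 28.6% of all genes did so. The other 21 tested members overlapped between the groups.

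Of the receptors of the TOM complex, Tomm20, which binds presequences, was higher in both clones. Its level was 124 and 127 CPM in KO clone 2, 135 and 139 CPM in KO clone 1 and 111 and 107 CPM in parental cells. The 3 groups did not overlap, and the parental libraries were lowest. Against parental cells the log2 value was 0.20 ± 0.044 in KO clone 2 (adjusted p = 0.000873) and 0.33 ± 0.044 in KO clone 1 (adjusted p = 7.15e-06). Both calls held without any 1 library and with the GC and length correction, at 0.18 in KO clone 2 and 0.20 in KO clone 1. With the clones as replicates, Tomm20 was not called (0.30 ± 0.088, adjusted p = 0.0600). Its paralog Tomm20l had 3 and 1 counts in KO clone 2, 0 and 4 counts in KO clone 1 and 9 and 5 counts in parental cells, too few for the test.

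Tomm70a, the receptor for precursors handed over by cytosolic chaperones, had 78.4 and 71.9 CPM in KO clone 2, 90.1 and 80.8 CPM in KO clone 1 and 79.6 and 74.7 CPM in parental cells. Only the KO clone 1 libraries stood above the parental ones, with a log2 fold change of 0.15 ± 0.060 (adjusted p = 0.0474) that was -0.026 with the GC and length correction. It was also not called without KO clone 1 replicate 1 (0.086), parental replicate 1 (0.18) or parental replicate 2 (0.086). Tomm22, the central receptor that holds the complex together, had a log2 fold change of -0.10 ± 0.065 in KO clone 2 (adjusted p = 0.215) and -0.21 ± 0.065 in KO clone 1 (adjusted p = 0.0123), a call lost without KO clone 1 replicate 1 (-0.15) or parental replicate 1 (-0.16). With the GC and length correction Tomm22 was called lower in both clones. It stood at -0.26 in KO clone 2 (adjusted p = 0.00128) and -0.32 in KO clone 1 (adjusted p = 0.000193).

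The channel gene Tomm40 encodes the β-barrel through which precursors pass. It had 38.1 and 40.8 CPM in KO clone 2, 23.3 and 31.0 CPM in KO clone 1 and 47.5 and 46.4 CPM in parental cells. All 3 groups were apart, with KO clone 1 lowest and parental cells highest. Its log2 difference from parental cells was -0.25 ± 0.11 in KO clone 2 (adjusted p = 0.105) and -0.79 ± 0.12 in KO clone 1 (adjusted p = 0.000575), and the call in KO clone 1 held without any 1 library. Its paralog Tomm40l had 5.40 and 7.06 CPM in KO clone 2, 2.97 and 4.44 CPM in KO clone 1 and 5.83 and 5.87 CPM in parental cells. Tomm40l was low in KO clone 1, with a log2 fold change of -0.65 ± 0.17 (adjusted p = 0.00602) that was -0.38 without KO clone 1 replicate 1. Of its exon bases, 64.3% overlap Nr1i3 on the opposite strand, a gene with 34 counts over all libraries. Per kb of exon, Tomm40l made up 12.1% ± 1.5 of the pair in KO clone 2, 10.6% ± 0.78 in KO clone 1 and 9.87% ± 0.19 in parental cells (SD, n = 2 each).

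Of the small TOM subunits, which steady the complex, Tomm7 was lower in KO clone 1 and Tomm5 higher in both clones. Tomm7 had 8.27 and 9.39 CPM in KO clone 2, 3.63 and 5.16 CPM in KO clone 1 and 7.56 and 6.80 CPM in parental cells. Its KO clone 1 libraries were the lowest, at a log2 fold change of -0.71 ± 0.14 (adjusted p = 0.000498; -0.46 without KO clone 1 replicate 1), against 0.30 ± 0.13 in KO clone 2 (adjusted p = 0.0765). Tomm5 had 31.6 and 29.3 CPM in KO clone 2, 29.9 and 33.5 CPM in KO clone 1 and 25.1 and 26.7 CPM in parental cells. All 4 KO libraries were above the parental ones, with 0.24 ± 0.071 in KO clone 2 (adjusted p = 0.0101) and 0.29 ± 0.071 in KO clone 1 (adjusted p = 0.00206). Both Tomm5 calls were lost without parental replicate 1 (0.20 in KO clone 2 and 0.24 in KO clone 1), that in KO clone 2 also without KO clone 2 replicate 1 (0.22), and the correction left 0.033 in KO clone 2 (adjusted p = 0.686) and 0.20 in KO clone 1 (adjusted p = 0.0114). Tomm6, the remaining small subunit, had 2 to 7 counts in each library and was not tested. Other genes overlap 84.2% of its exon bases, and Gm21981 on the same strand overlaps 76.0% of them. How reads in such overlaps were counted is not stated. Tomm34, a cytosolic co-chaperone of import, had a log2 fold change of 0.0073 ± 0.063 in KO clone 2 (adjusted p = 0.934) and -0.22 ± 0.064 in KO clone 1 (adjusted p = 0.00684), a call lost without KO clone 1 replicate 1 (-0.15) or parental replicate 2 (-0.18). With the GC and length correction the Tomm34 value in KO clone 1 was -0.13 and not called (adjusted p = 0.0736). Tomm6os, an antisense RNA at the Tomm6 locus that the symbol rule takes in, stayed under 1 CPM and was not called in any comparison.

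Samm50, the core of the β-barrel assembly machinery, had 30.3 and 31.4 CPM in KO clone 2, 24.6 and 27.0 CPM in KO clone 1 and 31.5 and 32.8 CPM in parental cells. The KO clone 1 libraries were the lowest. The log2 fold change was -0.059 ± 0.064 in KO clone 2 (adjusted p = 0.475) and -0.31 ± 0.065 in KO clone 1 (adjusted p = 0.000588).

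Among the small TIM chaperones and the disulfide relay, 0 of 7 tested members were called in KO clone 2, where 53.5% of all genes were called. Of the 7, 0 were past an unadjusted p of 0.05 there as well, where 13555 of 23400 genes were. In KO clone 1, 4 of the 7 were called lower, where 27.2% of all genes were. Timm13, which with Timm8a1 carries precursors across the space between the membranes, had 14.3 and 15.0 CPM in KO clone 2, 6.71 and 9.98 CPM in KO clone 1 and 16.1 and 13.8 CPM in parental cells. Both KO clone 1 libraries lay below all others, and they differed from each other by more than those of KO clone 2. Its log2 fold change was -0.033 ± 0.16 in KO clone 2 (adjusted p = 0.880) and -0.84 ± 0.16 in KO clone 1 (adjusted p = 0.00227). The chaperone gene Timm10, which pairs with Timm9 to shield carrier precursors, had 0.014 ± 0.11 in KO clone 2 (adjusted p = 0.925) and -0.39 ± 0.11 in KO clone 1 (adjusted p = 0.00637; -0.29 and not called without KO clone 1 replicate 1). Timm9 itself was not called, at 0.040 ± 0.091 in KO clone 2 and -0.038 ± 0.091 in KO clone 1.

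The relay consists of Chchd4, the oxidoreductase that forms disulfides in incoming proteins, and Gfer, the oxidase that recharges it. Gfer had 24.2 and 24.1 CPM in KO clone 2, 17.5 and 18.9 CPM in KO clone 1 and 21.9 and 23.0 CPM in parental cells. KO clone 2 was highest and KO clone 1 lowest, with no overlap among the 3 groups. The log2 fold change of Gfer was 0.11 ± 0.069 in KO clone 2 (adjusted p = 0.208) and -0.30 ± 0.069 in KO clone 1 (adjusted p = 0.00155). Chchd4 had 0.12 ± 0.13 in KO clone 2 (adjusted p = 0.471) and -0.38 ± 0.13 in KO clone 1 (adjusted p = 0.0237). The Chchd4 call in KO clone 1 was lost without KO clone 1 replicate 1 (-0.18) or parental replicate 1 (-0.35), and the value was -0.58 without KO clone 1 replicate 2. Timm8a1 had 11.2 and 11.6 CPM in KO clone 2, 8.25 and 9.84 CPM in KO clone 1 and 10.5 and 9.86 CPM in parental cells, and neither Timm8a1 nor Timm8b was called in either clone. With the GC and length correction both were called lower in KO clone 1. Timm8a1 then stood at -0.25 (adjusted p = 0.0277) and Timm8b at -0.29 (adjusted p = 0.00477). The Timm8a1 paralog Timm8a2 had 2 to 9 counts in each library and was not tested.

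Of the 4 rows of the TIM22 group, 0 were called in either clone, where 53.5% of all genes were called in KO clone 2 and 54.5% in KO clone 1. At an unadjusted p under 0.05, 2 rows of TIM22 were higher in KO clone 2, where 13555 of 23400 genes were past it. In KO clone 1, 0 rows of TIM22 were past it, where 13745 genes were. Timm22, its channel, had 25.9 and 27.6 CPM in KO clone 2, 20.9 and 23.1 CPM in KO clone 1 and 24.1 and 23.7 CPM in parental cells, so that the parental libraries lay between the clones. Its log2 fold change was 0.16 ± 0.070 in KO clone 2 (adjusted p = 0.0615) and -0.12 ± 0.070 in KO clone 1 (adjusted p = 0.159). Timm29, a TIM22 subunit of animals, had 0.049 ± 0.050 in KO clone 2 and 0.073 ± 0.050 in KO clone 1. The peripheral subunit gene Timm10b had 3.03 and 2.90 CPM in KO clone 2, 2.85 and 2.29 CPM in KO clone 1 and 2.14 and 2.49 CPM in parental cells, and Timm10 had 6.57 and 6.47 CPM in KO clone 2, 4.64 and 5.22 CPM in KO clone 1 and 6.48 and 6.43 CPM in parental cells. The second row named Timm10b is Gm45799 in the GENCODE annotation, with 95.3% of its exon bases overlapped by other genes on the same strand, and it stayed under 1 CPM.

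TIM23 held Timm17b, which had the highest log2 fold change of any member in either clone. Timm17b and Timm17a are alternative versions of a subunit that lines the presequence channel. Timm17b had 31.0 and 35.6 CPM in KO clone 2, 26.3 and 29.3 CPM in KO clone 1 and 16.6 and 16.9 CPM in parental cells. Every KO library was above both parental libraries, and the groups did not overlap. Relative to parental cells the log2 fold change came to 0.99 ± 0.079 in KO clone 2 (adjusted p = 1.37e-08), a 1.99-fold difference, and 0.73 ± 0.079 in KO clone 1 (adjusted p = 5.77e-07), a 1.66-fold difference. With the clones as replicates it was 0.90 ± 0.13 (adjusted p = 0.00765). In the single-library fit both calls held without any 1 library, and the GC and length correction left 0.96 in KO clone 2 and 0.86 in KO clone 1.

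Timm17a had 35.1 and 35.1 CPM in KO clone 2, 28.8 and 28.8 CPM in KO clone 1 and 25.6 and 25.8 CPM in parental cells. The KO libraries were again above the parental ones, and the log2 difference was smaller than that of Timm17b in both clones. In log2 terms the difference from parental cells was 0.45 ± 0.058 in KO clone 2 (adjusted p = 5.74e-06) and 0.16 ± 0.059 in KO clone 1 (adjusted p = 0.0264). The correction kept the call in KO clone 2 (0.47) and ended that in KO clone 1 (-0.00081, adjusted p = 0.992), which was also lost without parental replicate 1 or 2 (0.15 each). Per kb of annotated exon, Timm17b stood at 13.0 CPM per kb in KO clone 2, 10.9 in KO clone 1 and 6.55 in parental cells, and Timm17a at 4.45 CPM per kb in KO clone 2, 3.65 in KO clone 1 and 3.26 in parental cells. Per kb, Timm17b thus made up 74.5% ± 1.9 of the pair in KO clone 2, 74.8% ± 1.4 in KO clone 1 and 66.8% ± 0.12 in parental cells (SD, n = 2 each). The share in each KO library was above that in both parental libraries. These shares rest on annotated exon lengths, 2557 bases for Timm17b and 7893 for Timm17a, which need not match the transcripts expressed. Without the division by length, Timm17a averaged the higher CPM in each group. The means were 35.1 against 33.3 CPM in KO clone 2, 28.8 against 27.8 in KO clone 1 and 25.7 against 16.7 in parental cells.

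**Figure D2:**
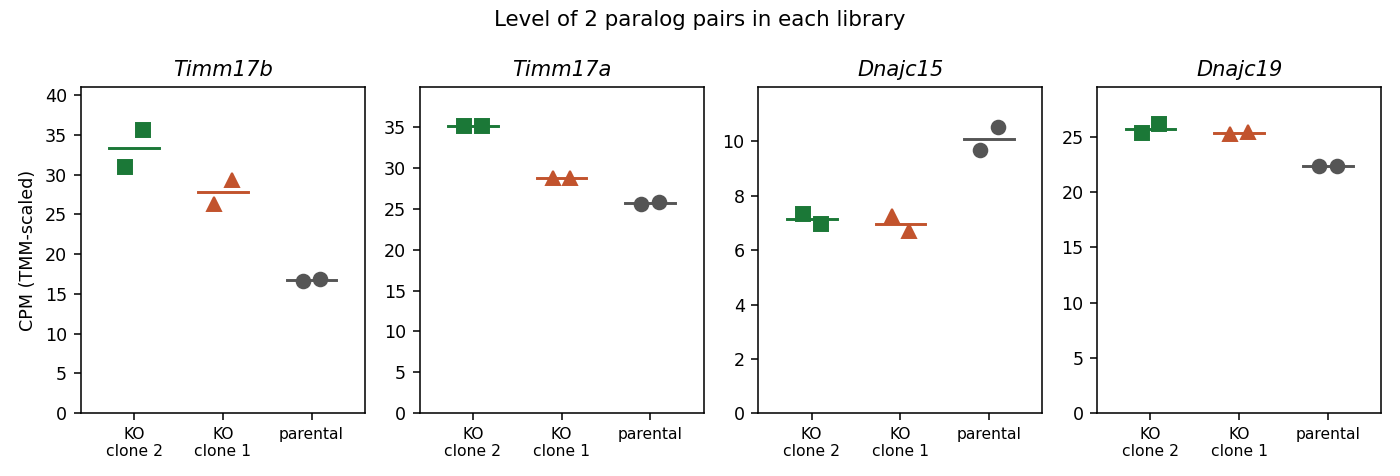
CPM in each library (points) and the group mean (line) for Timm17b, Timm17a, Dnajc15 and Dnajc19, each panel with its own axis from 0 and the groups KO clone 2, KO clone 1 and parental cells left to right. Timm17b averaged 33.3 ± 3.3 CPM in KO clone 2, 27.8 ± 2.1 CPM in KO clone 1 and 16.7 ± 0.17 CPM in parental cells (SD, n = 2 each), while Dnajc15 was the one of the 4 that lay lower in the KO libraries.

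Of the other TIM23 subunits, Timm21, which links the complex to TOM, had 24.7 and 24.0 CPM in KO clone 2, 26.2 and 26.4 CPM in KO clone 1 and 20.5 and 19.9 CPM in parental cells. All 4 KO libraries were above both parental ones. The log2 fold change was 0.27 ± 0.065 in KO clone 2 (adjusted p = 0.00213) and 0.38 ± 0.064 in KO clone 1 (adjusted p = 8.82e-05). Its transcripts are low in GC content, at 41.7%, and the correction left 0.14 in KO clone 2 (adjusted p = 0.0655) and 0.10 in KO clone 1 (adjusted p = 0.182), so both calls were lost. Timm23, the channel itself, had -0.031 ± 0.064 in KO clone 2 (adjusted p = 0.717) and -0.18 ± 0.064 in KO clone 1 (adjusted p = 0.0251). That call was lost without KO clone 1 replicate 1 (-0.066), KO clone 2 replicate 1 or 2 (-0.16 each) or parental replicate 1 (-0.14). With the GC and length correction Timm23 was called lower in both clones. It stood at -0.16 in KO clone 2 (adjusted p = 0.0204) and -0.20 in KO clone 1 (adjusted p = 0.00587). The presequence receptor gene Timm50 was called in neither clone, at 0.10 ± 0.079 in KO clone 2 and -0.17 ± 0.080 in KO clone 1.

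The import motor pulls the precursor into the matrix with mitochondrial Hsp70, which is driven by J proteins. Dnajc19 is the J protein of the motor, and Dnajc15, also known as MCJ, is its paralog. Dnajc15 had 7.32 and 6.96 CPM in KO clone 2, 7.24 and 6.70 CPM in KO clone 1 and 9.70 and 10.5 CPM in parental cells. All 4 KO libraries lay below both parental libraries, and the clones overlapped. Its log2 difference from parental cells was -0.50 ± 0.098 in KO clone 2 (adjusted p = 0.000378) and -0.54 ± 0.098 in KO clone 1 (adjusted p = 0.000191), and both calls held without any 1 library. With the clones as replicates Dnajc15 just missed the threshold, at -0.49 ± 0.14 (adjusted p = 0.0540), and the GC and length correction brought it to -0.60 (adjusted p = 0.0336).

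Dnajc19 had 25.3 and 26.1 CPM in KO clone 2, 25.2 and 25.4 CPM in KO clone 1 and 22.3 and 22.4 CPM in parental cells. Here the KO libraries were the higher ones, at 0.20 ± 0.063 in KO clone 2 (adjusted p = 0.0132) and 0.18 ± 0.063 in KO clone 1 (adjusted p = 0.0242). Both Dnajc19 calls were lost without either parental library, at 0.21 and 0.21 in KO clone 2 and 0.17 and 0.17 in KO clone 1, and with the correction, at 0.095 in KO clone 2 and -0.10 in KO clone 1. Per kb of exon, Dnajc15 made up 14.7% ± 0.72 of the pair in KO clone 2, 14.5% ± 0.76 in KO clone 1 and 21.8% ± 0.94 in parental cells (SD, n = 2 each). The share in every KO library was below that in both parental libraries.

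Timm44, the scaffold that tethers Hsp70 to the channel, had 32.5 and 32.2 CPM in KO clone 2, 25.5 and 29.2 CPM in KO clone 1 and 26.3 and 26.6 CPM in parental cells. KO clone 2 stood above the other groups, at 0.29 ± 0.069 (adjusted p = 0.00205), and KO clone 1 overlapped with parental cells, at 0.048 ± 0.069 (adjusted p = 0.587). The GC and length correction left 0.30 in KO clone 2 and brought KO clone 1 to 0.16 (adjusted p = 0.0412). Grpel1, the nucleotide exchange factor of the motor, had 0.0073 ± 0.063 in KO clone 2 (adjusted p = 0.933) and -0.20 ± 0.063 in KO clone 1 (adjusted p = 0.0155), a call lost without KO clone 1 replicate 1 (-0.11) or parental replicate 1 (-0.19). Pam16, which holds the J protein in place, was called in neither clone, at 0.18 ± 0.10 in KO clone 2 and 0.054 ± 0.10 in KO clone 1.

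The promoters of the Timm17 and Dnajc15/Dnajc19 pairs are shown because the members of each pair differed in size or direction. The sequences are RefSeq's on GRCm38.p6, from 250 bases before to 50 bases after the gene's start, 5′ to 3′ on the gene's strand. The gene models of the annotation span chrX:7899357-7908351 for Timm17b, chr1:135295213-135313778 for Timm17a, chr14:77820681-77875125 for Dnajc15 and chr3:34056020-34081321 for Dnajc19, all protein coding. The windows lie at chrX:7899086-7899385 (plus strand) for Timm17b, chr1:135313688-135313987 (minus) for Timm17a, chr14:77874868-77875167 (minus) for Dnajc15 and chr3:34081305-34081604 (minus) for Dnajc19. Capitals mark the CCAAT box, the letters CCAAT on either strand.
Timm17b: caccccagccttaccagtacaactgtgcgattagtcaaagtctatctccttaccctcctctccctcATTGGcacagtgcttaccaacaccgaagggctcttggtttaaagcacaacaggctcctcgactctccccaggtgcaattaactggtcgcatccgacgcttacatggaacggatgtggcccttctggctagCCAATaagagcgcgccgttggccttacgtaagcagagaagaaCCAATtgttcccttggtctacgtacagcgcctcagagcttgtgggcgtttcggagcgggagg
Timm17a: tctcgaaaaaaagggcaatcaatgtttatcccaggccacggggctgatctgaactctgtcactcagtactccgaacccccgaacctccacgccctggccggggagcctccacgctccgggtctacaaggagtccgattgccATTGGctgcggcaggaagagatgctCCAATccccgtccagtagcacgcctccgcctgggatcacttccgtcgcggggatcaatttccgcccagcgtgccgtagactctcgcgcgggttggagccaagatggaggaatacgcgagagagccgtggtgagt
Dnajc15: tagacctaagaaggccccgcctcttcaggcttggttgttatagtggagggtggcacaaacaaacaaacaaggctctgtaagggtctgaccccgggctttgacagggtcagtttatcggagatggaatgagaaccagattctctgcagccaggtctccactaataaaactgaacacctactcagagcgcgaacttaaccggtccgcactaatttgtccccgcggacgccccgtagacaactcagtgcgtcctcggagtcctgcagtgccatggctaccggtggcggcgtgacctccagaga
Dnajc19: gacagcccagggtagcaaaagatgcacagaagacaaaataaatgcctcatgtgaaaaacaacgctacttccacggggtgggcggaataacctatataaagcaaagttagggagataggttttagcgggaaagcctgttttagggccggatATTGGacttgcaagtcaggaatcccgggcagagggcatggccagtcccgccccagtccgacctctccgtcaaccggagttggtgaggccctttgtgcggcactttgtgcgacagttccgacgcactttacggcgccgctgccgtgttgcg
With position 0 at the first transcribed base, the boxes begin at -184, -54 and -12 in Timm17b, at -109 and -84 in Timm17a and at -100 in Dnajc19. The Dnajc15 window has none. That window ends at chr14:77875167 and the annotated Dnajc15 gene reaches 77875125, so most of the window lies inside the annotated gene. Little sequence before the annotated start of Dnajc15 was therefore searched. A CCAAT box stood in 10 of 34 windows of members (29.4%) and in 37.4% of 32851 windows of all genes. The GC box, GGGCGG, stood in 18 of the 34 (52.9%) and in 35.7% of all, and the ETS motif CCGGAAGT in 7 (20.6%) and 3.89%. The E-box CACGTG stood in 6 (17.6%) and 7.15%, the YY1 core AAGATGG in 3 (8.82%) and 6.34%, and the TATA box TATAAA in 3 (8.82%) and 13.6%. The palindromic NRF1 motif stood in 0 of 34 and in 0.971% of all, and with 1 middle base left free in 4 (11.8%), those of Chchd4, Pam16, Timm8b and Tomm20, and 4.60%. A longer YY1 motif that begins with the core stood in 1 (2.94%) and 0.633%. All were searched on both strands, and none of those spelled out contains another. RefSeq windows were matched for 32 of the 35 symbols. The window of a member held a median of 58.3% GC and 19 CpG, and that of any gene 52.7% and 7.

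The matrix processing peptidase has a catalytic and a substrate-binding subunit. Pmpcb, the catalytic one, had 67.1 and 67.7 CPM in KO clone 2, 50.1 and 56.5 CPM in KO clone 1 and 48.8 and 46.0 CPM in parental cells. KO clone 2 stood above both other groups. On the log2 scale the difference was 0.51 ± 0.059 in KO clone 2 (adjusted p = 1.48e-06) and 0.17 ± 0.059 in KO clone 1 (adjusted p = 0.0234). In KO clone 1 the value depended on single libraries, at 0.27 without KO clone 1 replicate 1, 0.094 without KO clone 1 replicate 2, 0.20 without parental replicate 1 and 0.11 without parental replicate 2, the last 3 not called, and it was -0.046 with the correction. Pmpca, the subunit that binds the substrate, had 62.5 and 62.2 CPM in KO clone 2, 58.3 and 55.4 CPM in KO clone 1 and 63.6 and 63.0 CPM in parental cells. Its differences were small, at -0.022 ± 0.048 in KO clone 2 (adjusted p = 0.728) and -0.15 ± 0.048 in KO clone 1 (adjusted p = 0.0123). The call of Pmpca was lost without KO clone 1 replicate 2 (-0.10), KO clone 2 replicate 1 or 2 (-0.13 each) or parental replicate 1 (-0.16). On the opposite strand, Inpp5e overlaps 20.4% of the exon bases of Pmpca, Glis2 18.7% of those of Pam16, Nkapd1 15.6% of those of Timm8b and Tada2b 11.6% of those of Grpel1.

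**Figure D3:**
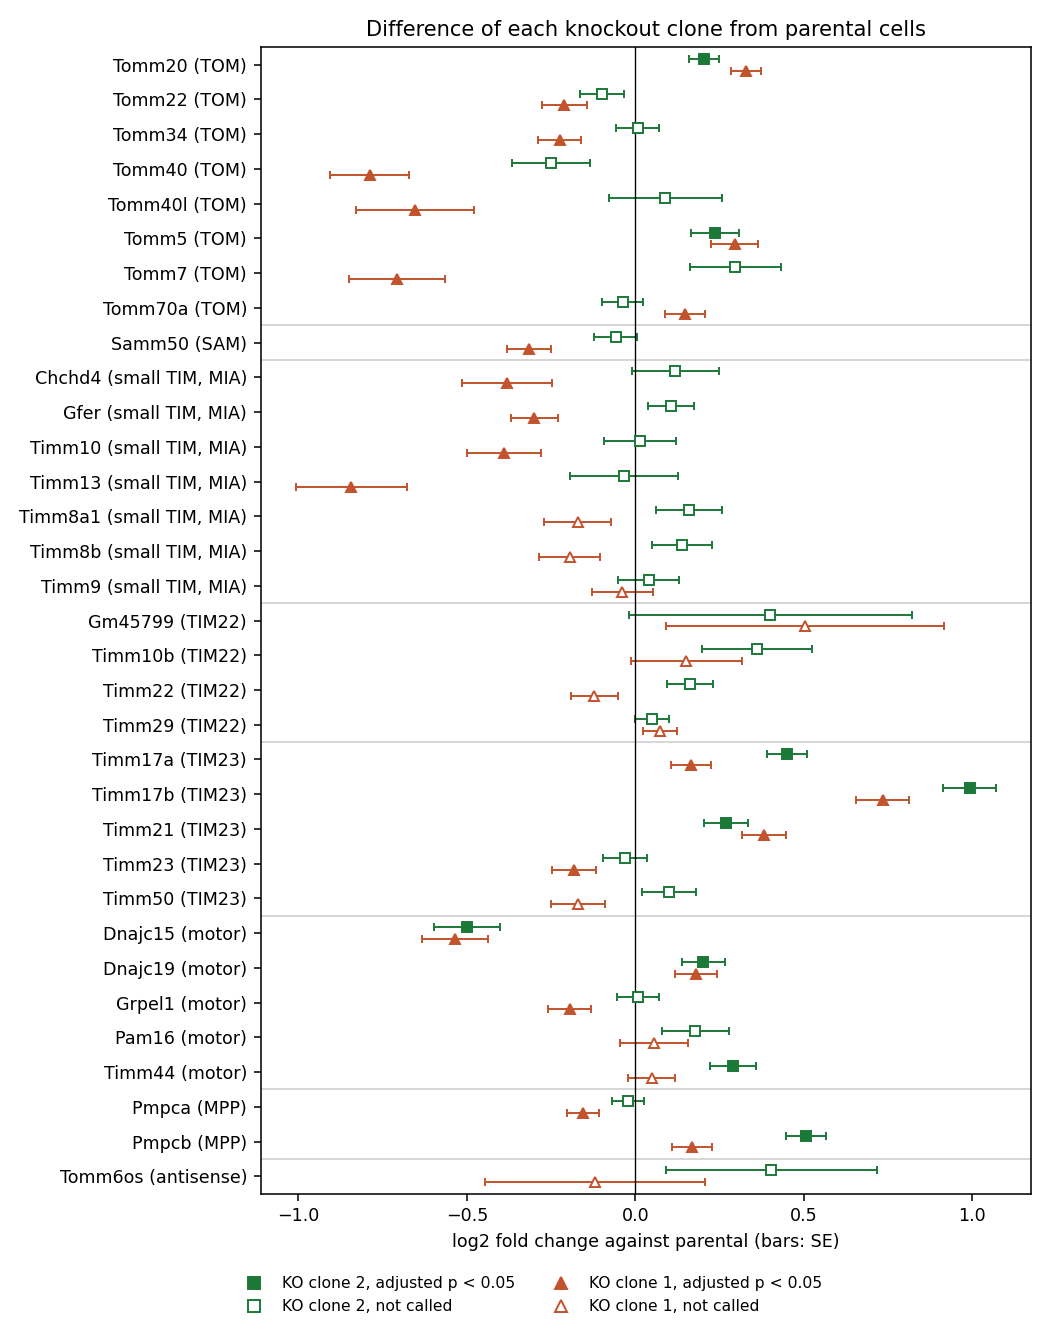
Log2 fold change of each tested import gene against parental cells (x axis; bars are the standard error from the fit of single libraries), with KO clone 2 as squares above KO clone 1 as triangles and filled symbols for an adjusted p under 0.05. In KO clone 2, 8 filled squares lie right and 1 left of 0, and in KO clone 1, 8 filled triangles lie right and 14 left.

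The test of the difference between the clones called 19 members higher and 2 lower in KO clone 2 than in KO clone 1, where 36.4% of 23400 genes were called, 16.1% higher and 20.3% lower. The median log2 difference was 0.24 over the members and -0.0055 over all genes. Both KO clone 2 libraries lay above both KO clone 1 libraries for 23 tested members, where 32.0% of all genes did so, and below for 3, where 34.3% did so. The largest differences were those of Tomm7 at 1.00 ± 0.14 (adjusted p = 3.44e-05), Timm13 at 0.81 ± 0.16 (adjusted p = 0.00487), Tomm40l at 0.74 ± 0.17 (adjusted p = 0.00418) and Tomm40 at 0.54 ± 0.12 (adjusted p = 0.00819). By role, 4 of 8 tested TOM genes were called higher and 2 lower, 6 of 7 genes of the small TIM and relay group were called higher, and so were 3 of 5 genes of TIM23, 2 of 5 of the motor, 1 of 4 of TIM22, Samm50 and both peptidase subunits. The 2 lower ones were the receptors Tomm20 (-0.12 ± 0.044, adjusted p = 0.0348) and Tomm70a (-0.19 ± 0.060, adjusted p = 0.0230). Dnajc15 did not differ between the clones by more than its error, at 0.035 ± 0.10 (adjusted p = 0.826).

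This difference was also set beside transcript GC content and the split between the libraries of each group. Across the 31 members with a mean of at least 2 CPM, the ratio of KO clone 2 to KO clone 1 had a Spearman rho of 0.46 with GC content, and 0.36 across 12917 genes. The points share the same libraries, and no p is given. KO clone 1 library 1 was below library 2 for 27 of the 33 tested members, where KO clone 2 library 1 was below library 2 for 19 and parental library 1 below library 2 for 13. In KO clone 1 the median log2 ratio of library 1 to library 2 was -0.14 over the 31 members and -0.0033 over the 12917 genes. It was -0.034 and -0.0043 in KO clone 2 and 0.018 and 0.0022 in parental cells. The part of this split in the difference between the clones was not tested. With the GC and length correction, 15 members were called higher and 1 lower in KO clone 2 than in KO clone 1. Of all genes, 15.9% were then called higher and 18.9% lower. Of the 21 calls 7 ended, those of Tomm20, Tomm70a, Tomm34, Timm50, Timm44, Timm17b and Timm10, and 2 were gained, Dnajc19 higher and Tomm5 lower. Without KO clone 2 replicate 2, calls lost included those of Tomm40l (0.56), Tomm70a (-0.10) and Tomm20 (-0.12). Without KO clone 1 replicate 1, calls lost included that of Tomm70a (-0.086). Each of these fits leaves 1 library in a clone, and a smaller share of all genes was called as well. The calls of Tomm20 and Tomm70a were also lost without parental replicate 1 (-0.10 and -0.16) or parental replicate 2 (-0.10 and -0.16), and that of Tomm20 without KO clone 2 replicate 1 (-0.085). The calls of 9 members held without any 1 library: Tomm7, Timm13, Tomm40, Gfer, Timm10, Pmpcb, Timm17a, Timm22 and Samm50.

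**Figure D4:**
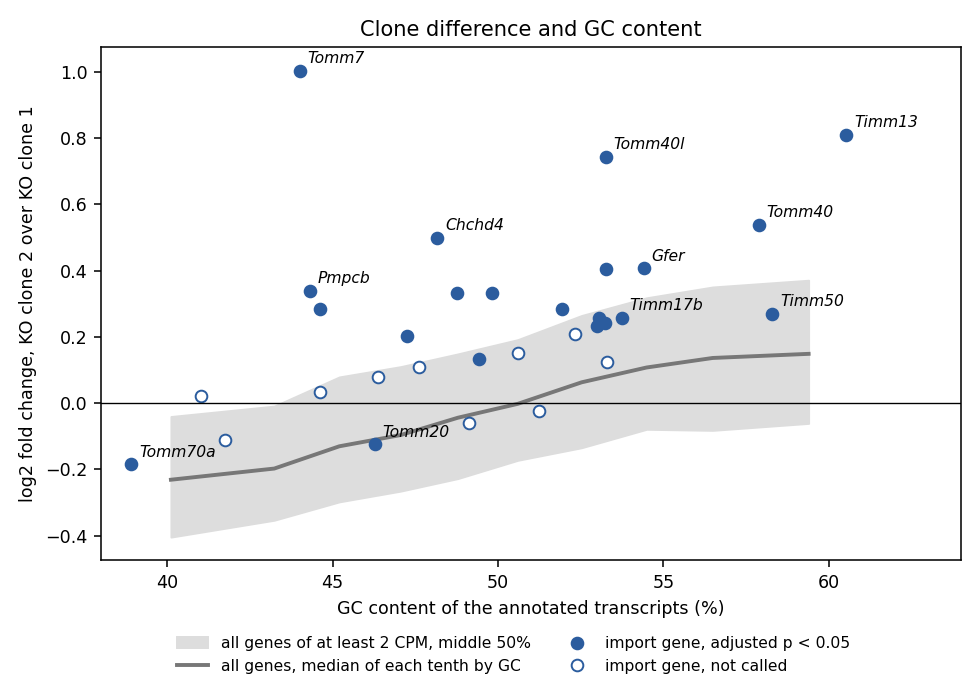
Log2 fold change of KO clone 2 over KO clone 1 (y axis) against the GC content of the annotated transcripts in percent (x axis), with points for import genes at a mean of at least 2 CPM, filled where the adjusted p was under 0.05, and the line and band for the median and the middle 50% of all such genes binned by GC content. Most import genes lie above the line of all genes, from Tomm7 at 1.00 and 44.0% GC to Timm13 at 0.81 and 60.5% GC.

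The members spanned a wide range of levels per length. Per kb of exon, over the union of a gene's annotated transcripts, Timm8b stood at 40.9 CPM per kb in KO clone 2, 32.4 in KO clone 1 and 37.1 in parental cells. Tomm5 stood at 35.1 CPM per kb in KO clone 2, 36.5 in KO clone 1 and 29.8 in parental cells. Next came Timm23, with 26.7 CPM per kb in KO clone 2, 24.1 in KO clone 1 and 27.3 in parental cells, and Tomm20, with 25.6 in KO clone 2, 27.9 in KO clone 1 and 22.2 in parental cells. The order of these members differed between groups: Timm8b led in KO clone 2 and parental cells and Tomm5 in KO clone 1, where Tomm20 also stood above Timm23. Leaving aside members that were not tested or stayed under 1 CPM, the 4 lowest were Timm10b, Tomm40l, Chchd4 and Dnajc15. Dnajc15 stood at 1.10 CPM per kb in KO clone 2, 1.07 in KO clone 1 and 1.55 in parental cells, Chchd4 at 1.33 in KO clone 2, 0.940 in KO clone 1 and 1.23 in parental cells, Tomm40l at 1.21 in KO clone 2, 0.722 in KO clone 1 and 1.14 in parental cells, and Timm10b at 0.829 in KO clone 2, 0.717 in KO clone 1 and 0.646 in parental cells.

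Beside the members, 40 genes that work with the import machinery were read from the same fits. With the clones as replicates, 2 were called higher and 3 lower, where 13.0% of all genes were called higher and 13.6% lower. Pitrm1, the matrix protease that degrades cleaved presequences, had 77.5 and 79.4 CPM in KO clone 2, 76.6 and 75.7 CPM in KO clone 1 and 120 and 119 CPM in parental cells. All KO libraries were below the parental ones (-0.59 ± 0.083, adjusted p = 0.00679). Hspd1, the matrix chaperonin Hsp60, was also lower (-0.39 ± 0.10, adjusted p = 0.0425), and so was Hsp90aa1, a cytosolic chaperone that delivers precursors to Tomm70a (-0.72 ± 0.090, adjusted p = 0.00460). Hsp90aa1 had 222 and 212 CPM in KO clone 2, 242 and 233 CPM in KO clone 1 and 389 and 377 CPM in parental cells. Mtx3, an outer membrane metaxin, was among those called higher (0.43 ± 0.11, adjusted p = 0.0398). In the fit of single libraries 12 of the 40 were called higher and 8 lower in KO clone 2, where 26.7% of all genes were higher and 26.8% lower, and 8 were higher and 14 lower in KO clone 1, where 27.3% were higher and 27.2% lower. By list, KO clone 2 had 7 of 12 outer membrane and MICOS partners higher and 1 lower, 1 of 10 matrix chaperones and processing enzymes higher and 3 lower, 2 of 10 inner membrane partners higher and 0 lower, and 2 of 8 cytosolic delivery factors higher and 4 lower. In KO clone 1 the outer membrane and MICOS list had 3 higher and 3 lower, the matrix list 2 higher and 5 lower, the inner membrane list 2 higher and 2 lower, and the cytosolic list 1 higher and 4 lower.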

How the data were processed

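The authors deposited a table of whole-number counts per gene, not normalized, for 6 libraries of total RNA. STAR, featureCounts, GRCm38.p6 and mm10 are named, without versions or order, per the submitters' processing notes. Per the labels' protocols, libraries were made with an ultra-low input kit or a TruSeq kit; neither the kit of each library nor the settings for strand and multiply mapped reads are stated in the sources used here. Overlapping or antisense genes and near-identical copies therefore cannot be told apart. Groups came from the sample titles. Coordinates, exon lengths and GC content came from the GENCODE M21 annotation of the same build. The targeted gene is not reported here.

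Tests used edgeR 4.0.16 under R 4.3.3 (filterByExpr with a minimum count of 10, TMM scaling, robust quasi-likelihood test, Benjamini-Hochberg adjustment over all genes tested, threshold 0.05). KO against parental used summed libraries of each clone beside the 2 parental libraries (24506 genes). The other comparisons came from a single fit to all 6 libraries with 3 groups (23400 genes, 3 residual degrees of freedom). The standard error is the log2 fold change divided by the square root of F. The fits were also run on simulated counts, drawn with the same spread for every gene and library and no difference between the clones. That run cannot check how the fits handle variation between clones. The GC and length correction subtracted splines of each library's log2 CPM on GC content (5 degrees of freedom) and length (4), and was chosen after the data were seen. Other alternatives were DESeq2 1.42.0, other scalings, no filter, other units of replication, a replicate block and leaving out each library. Reads are not independent molecules, so precision was judged from the spread between libraries.

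Members, gene lists and tests were chosen with earlier results of these data known. By the rule for named genes, values in every library were given for members called in KO against parental and for paralog pairs, and the rest by counts and ranges. Members outside it given in every library were chosen after their values were seen. Partner genes were named where called in KO against parental, up to 4 a list.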

Additional observations from a re-analysis of the deposited data

Results flagged for a closer look

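The difference between the KO clones was itself tested as a contrast, with edgeR's quasi-likelihood test and Benjamini-Hochberg adjustment over 23400 genes, and 21 members passed. These values are log2 of KO clone 2 over KO clone 1, from 2 libraries a clone. In the TOM complex they were 1.00 for Tomm7, 0.74 for Tomm40l, 0.54 for Tomm40, 0.23 for Tomm34, -0.12 for Tomm20 and -0.19 for Tomm70a, and for Samm50 0.26. In the small TIM and relay group they were 0.81 for Timm13, 0.50 for Chchd4, 0.41 for Gfer, 0.40 for Timm10, 0.33 for Timm8b and 0.33 for Timm8a1. In TIM22 and TIM23 they were 0.28 for Timm22, 0.29 for Timm17a, 0.27 for Timm50 and 0.26 for Timm17b. For the motor and the peptidase they were 0.24 for Timm44, 0.20 for Grpel1, 0.34 for Pmpcb and 0.13 for Pmpca. With the GC and length correction, 7 of the 21 were no longer called, Timm10 at 0.21 (adjusted p = 0.135), Timm44 at 0.15 (adjusted p = 0.0822), Tomm34 at 0.11 (adjusted p = 0.143), Timm17b at 0.10 (adjusted p = 0.253), Timm50 at 0.075 (adjusted p = 0.422), Tomm70a at 0.080 (adjusted p = 0.162) and Tomm20 at -0.019 (adjusted p = 0.771), while Tomm7 stood at 1.02 and Timm13 at 0.58, both called. Single libraries also moved these values. Without KO clone 2 replicate 2, Timm8b was at 0.21 (adjusted p = 0.150), Chchd4 at 0.41 (adjusted p = 0.0927), Timm8a1 at 0.33 (adjusted p = 0.0787), Timm50 at 0.21 (adjusted p = 0.144) and Timm17b at 0.17 (adjusted p = 0.184). Without KO clone 1 replicate 1, Chchd4 was at 0.33 and still called (adjusted p = 0.0485), while Timm50 was at 0.17 (adjusted p = 0.0743) and Timm8a1 at 0.23 (adjusted p = 0.0970).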

How the results depend on the processing

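With 2 libraries a group and clones as the unit of genotype, precision is limited by the number of clones rather than by depth. For members in KO against parental, 1 was called higher and 0 lower. The count of higher calls was 4 with no filter on low counts, where 9.17% of all genes were higher, 8 with libraries as replicates (27.9%), 12 without KO clone 1 (28.4%) and 8 without KO clone 2 (28.9%), and the count of lower calls was 5, 2 and 16 in the last 3 of these, where 28.5%, 26.9% and 26.6% of all genes were lower. The count of lower calls was 1 with DESeq2 size factors (14.2% of all genes), upper quartile scaling (15.3%) or the GC and length correction (15.1%). Leaving out 1 library of a KO clone gave 1 higher and 0 to 1 lower. Of all genes, 10.9% to 14.1% were then higher and 12.6% to 15.2% lower. KO clone 1 had 8 higher and 14 lower: 4 higher with upper quartile scaling, DESeq2, or the GC and length correction, and 4 to 10 higher and 8 to 17 lower without 1 library. The low values came without parental replicate 1 (4 higher, 9 lower), parental replicate 2 (4 higher) and KO clone 1 replicate 1 (8 lower). KO clone 2 had 8 higher and 1 lower: 15 and 2 with no filter, 2 lower with DESeq2, 5 and 3 with the GC and length correction, and 7 to 16 higher and 1 to 2 lower without 1 library, with 16 and 2 without KO clone 1 replicate 1. Between the clones, 19 higher and 2 lower became 10 to 20 and 0 to 2 without 1 library, 0 lower with upper quartile scaling, and 1 lower with no filter, DESeq2, or the GC and length correction. The replicate numbers did not pair the samples (correlations of -0.0075, -0.015 and 0.019 between groups). With a replicate block KO clone 2 had 2 members called lower, where 26.5% of all genes were. Where a sign turned, the value was called in at most 1 of the 2 fits, and the cause was not tested. In KO against parental, Timm50 (0.0048) and Timm8b (0.014) turned to -0.14 and -0.16 without KO clone 2. Tomm7 (-0.085) turned to 0.32 without KO clone 1. None of these 3 was called in the main fit. With the GC and length correction, Tomm70a (-0.026), Pmpcb (-0.046), Timm17a (-0.00081) and Dnajc19 (-0.10) turned in KO clone 1 and were no longer called. The same held for Tomm70a (0.080) between the clones. Of 1650 comparisons of a member under an alternative, 1352 kept sign and side of the threshold, and 102 gained and 90 lost a call with the same sign. The sign changed in 106, of which 8, those given above, were called in either fit and 98 in neither.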
